A study of Homo sapiens with 2 samples.

Results

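The genes described here encode the folding machinery of the cytosol, nucleus and mitochondria. They were taken by symbol: Hsp70 and Hsp110 (HSPA and HSPH), Hsp90 of the cytosol (HSP90AA and HSP90AB), the mitochondrial chaperonin (HSPD and HSPE), the cytosolic chaperonin (CCT), small heat shock proteins (HSPB), J proteins (DNAJA, DNAJB, DNAJC) and BAG proteins. The ER genes HSPA5, DNAJB9, DNAJB11 and DNAJC3 were set aside, and joined symbols of read-through genes did not match. This gave 65 of the 12014 rows listed for each library. The rule uses symbols alone, but it was chosen with earlier results of these data known. It also reaches only listed genes, which are above 0.5 FPKM in at least 1 library. The name of the group does not hold for every gene in it, since HSPA13, DNAJB12, DNAJB14, DNAJC1, DNAJC10 and some others encode proteins of the ER or its membrane.

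The RNA came from ACHN cells, an established human renal carcinoma line. The library called shKIAA1429 here has the genotype label ACHN_sh and is described in the labels as a KIAA1429 knockout, while the paper's methods describe stable lentiviral knockdown with an shRNA. The library called shNC here is labelled NC, the negative control, and carried a control shRNA. Both infected cultures were selected with puromycin, which of the KIAA1429 hairpins was sequenced is not given in the sources used here, and there was 1 library per group. The differences given here were thus not checked in replicates, and they carry no p-value.

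Hsp70 proteins bind and release unfolded stretches of other proteins in a cycle driven by ATP. J proteins bring clients to Hsp70 and start ATP hydrolysis, while Hsp110 and BAG proteins open the nucleotide site again. Hsp90 takes over late folding steps of kinases and receptors, and chaperonins close around a client in a chamber. Heat shock factor 1 raises many of these genes under stress by binding heat shock elements, in which short GAA units stand in alternating orientation.

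The elements are shown because they mark which promoters hold this sequence in the families that follow. The letters GAANNTTC or TTCNNGAA, which each read the same on both strands, were searched in windows of 250 bases before and 50 after the gene start (RefSeq, GRCh38.p14), and 57 of the 65 genes had a window. The motif of 2 units was present in 10 of these 57 promoters (17.5%), against 13.7% of all 27305 promoters of the same length and 9.72% of the 9350 promoters of listed genes. It was present in 6 of the 16 promoters of genes on a hand-written list of chaperones tied to the heat shock response (37.5%), which also holds the constitutive HSPA8 and HSP90AB1. A run of 3 alternating units, which contains the shorter motif, was found for HSPA8, DNAJA1 and DNAJB6. This was 5.26% of the 57 promoters, against 0.487% of all promoters and 0.31% of those of listed genes. The presence of these letters is a description and shows no binding. The windows below read 5′ to 3′ on the strand of the gene, with the element in capitals, for genes whose levels are given later. They lie at chr6:31815429-31815458 (HSPA1A, plus strand), chr6:31827625-31827654 (HSPA1B, plus), chr11:123062345-123062374 and chr11:123062170-123062199 (HSPA8 distal and proximal, minus), chr9:33025067-33025096 (DNAJA1, plus), chr7:76302483-76302512 (HSPB1, plus), chr12:119178835-119178864 (HSPB8, plus) and chr7:157336865-157336894 (DNAJB6, plus).
HSPA1A: aaaccctgGAATATTCccgacctggcagcc
HSPA1B: aacccctgGAATATTCccgacctggcagcc
HSPA8 distal: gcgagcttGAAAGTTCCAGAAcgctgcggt
HSPA8 proximal: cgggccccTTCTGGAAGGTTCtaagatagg
DNAJA1: gggctccaGAAGATTCcacgagcgccggga
HSPB1: taacgagaGAAGGTTCcagatgagggctga
HSPB8: tcacctccGAATATTCctgtgacaggagac
DNAJB6: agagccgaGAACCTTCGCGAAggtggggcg
The HSPA1A and HSPA1B windows were identical at 29 of 30 positions, and both genes count among the 6 of the hand-written list. The run of 3 units of DNAJA1 begins downstream of its start and is not printed.

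Levels were given by the authors as FPKM, fragments scaled by the length of the gene and the number of fragments in the library, so they can be compared between genes. The depth of the libraries is unknown, since FPKM keeps no counts. KIAA1429 itself, listed as VIRMA, was at 3.92 FPKM with shNC and 3.22 FPKM with shKIAA1429, 82.1% of the control. The log2 change was -0.25 for ACTB, -0.31 for GAPDH and -2.42 for MYC, genes taken for reference. The mitochondrial genes held 42.2% of the summed FPKM with shNC and 34.6% with shKIAA1429, and the remaining genes summed to 163568 and 163147. Of 11 markers of renal epithelium and carcinoma, 10 were listed, with CDH6 not listed. Of these, 4 were higher and 6 lower with shKIAA1429, with a median log2 change of -0.21. The 4 higher markers were PAX8 (64.7 and 104 FPKM), MET (63.0 and 90.5 FPKM), PAX2 (31.4 and 39.3 FPKM) and KRT18 (67.4 and 78.6 FPKM). Among the 6 lower ones, VIM was at 368 and 228 FPKM, KRT19 at 292 and 212 FPKM and CDH16 at 6.61 and 4.29 FPKM. Of 10 markers of blood, endothelial and stromal cells, 7 were not listed, PTPRC, PECAM1 and DCN among them. The listed markers were ACTA2 (47.1 and 76.2 FPKM), CD68 (3.87 and 2.06 FPKM) and COL1A1 (1.08 and 1.62 FPKM). In bulk RNA, fewer cells with a transcript and less of it per cell cannot be told apart.

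The chaperone genes summed to 2232 FPKM with shNC and to 2337 FPKM with shKIAA1429, which was 1.36% and 1.43% of the FPKM outside the mitochondrial genes. A few transcripts carried most of this. The 5 most abundant genes made up 54.8% of that total in the shNC library and 51.1% in the other, and the median gene was at 9.58 and 10.6 FPKM. HSPB1, HSP90AB1, HSPA8, HSP90AA1 and HSPD1 held ranks 1 to 5 with shNC. With shKIAA1429 these genes again held ranks 1 to 5, with HSP90AB1 ahead of HSPB1 and HSP90AA1 ahead of HSPA8. At the low end, DNAJB5 was at 0.423 and 0.714 FPKM and DNAJC24 at 0.743 and 1.07 FPKM. Both had a mean under 1 FPKM and were left out of the counts that follow, which cover 63 genes.

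**Figure D1:**
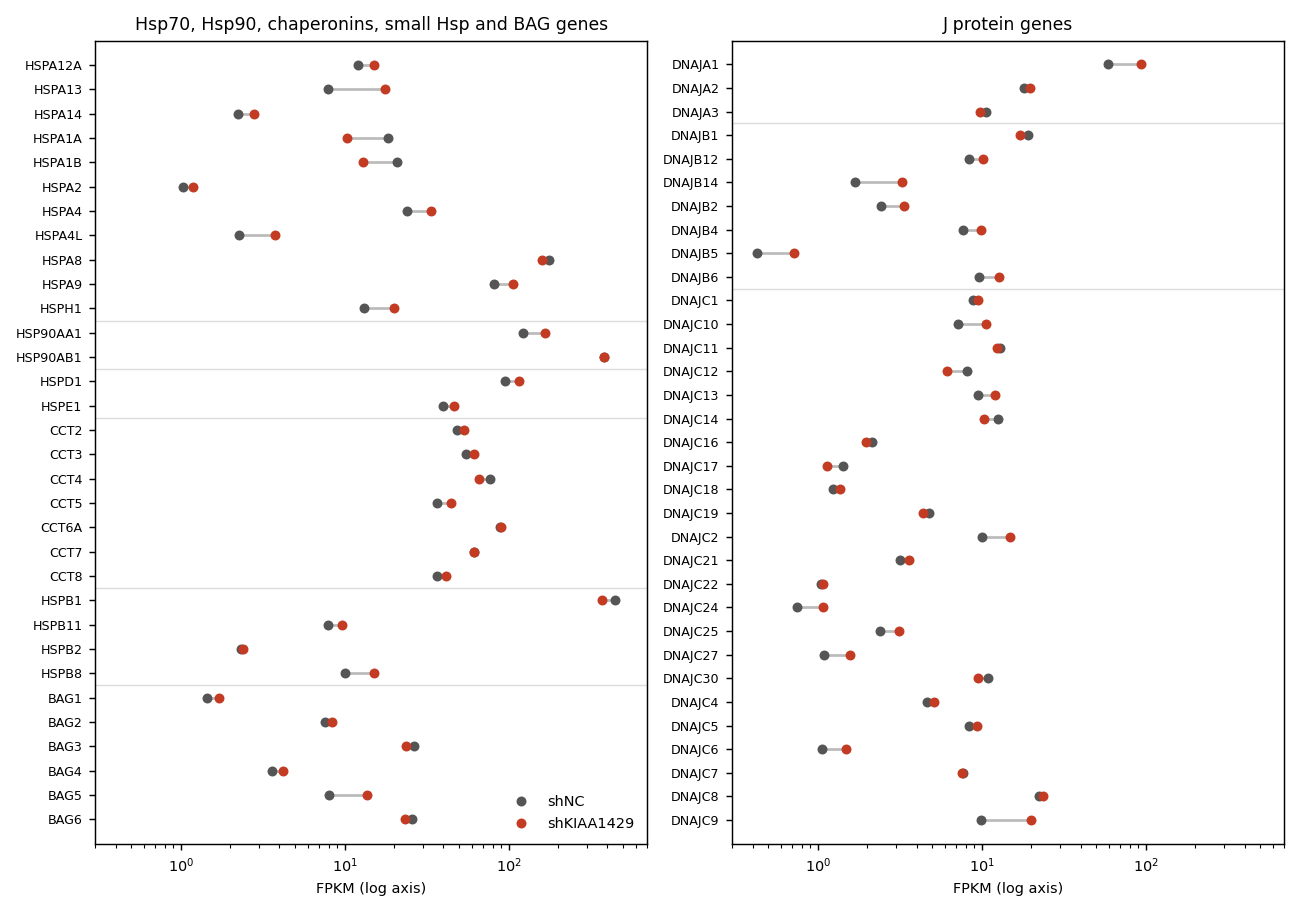
FPKM of each of the 65 chaperone genes in the shNC library (grey) and the shKIAA1429 library (red) on a log axis, 1 point per library, with a bar joining the points of a gene and grey lines between families. HSPB1 and HSP90AB1 lie furthest right in both libraries, and HSPA1A and HSPA1B are the genes of the left panel with the widest gap toward lower values.

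Differences between the libraries were small for most of these genes. Each log2 change is the log2 of the ratio of FPKM + 1, shKIAA1429 to shNC, and so is too small for genes of low level. When both libraries were rescaled to the same FPKM sum, the median of all genes moved up by 0.18, and genes lower by less than about that much turned sign (11 of the chaperone genes). With the mitochondrial genes left out of that sum, the median moved by 0.01, and 1 of the chaperone genes turned sign. None of the 63 genes passed a log2 change of 1.5 in either direction, the fold limit given in the paper's methods. Past that limit, 0.383% of the 10702 genes with a mean of at least 1 FPKM were higher and 0.252% were lower. HSPA13 was the only chaperone gene past a limit of 1 (1.61% of all genes were higher and 0.897% lower by that much). At a limit of 0.5, 10 chaperone genes (15.9%) were higher, against 9.9% of all genes, and 2 (3.17%) were lower, against 6.12%. After centring on the median of all genes, 6 chaperone genes (9.52%) were higher by that much, against 7.64% of all genes, and with the trend of GC content and length taken out 6 (9.52%), against 8.73%, so the share then lay near that of all genes. In all, 44 of 63 were higher to any degree (69.8%), against 57.3% of all genes. The median log2 change was 0.14, beside 0.06 over all genes. The genes past 0.5 were HSPA13, DNAJC9, BAG5, DNAJA1, DNAJB14, HSPH1, HSPA4L, DNAJC2, HSPB8 and DNAJC10 on the higher side, and HSPA1A and HSPA1B on the lower side.

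**Figure D2:**
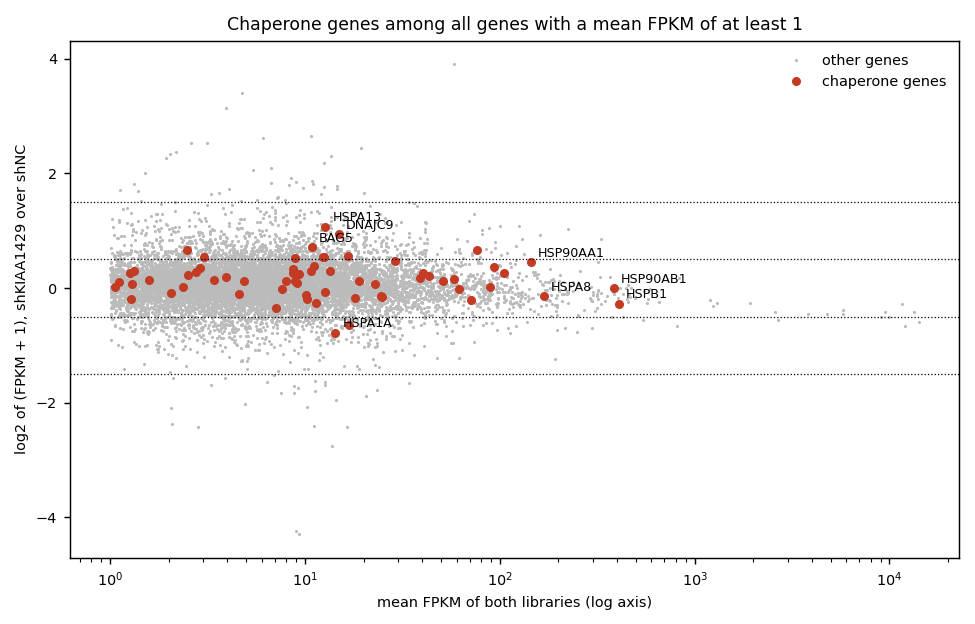
Log2 change (vertical) against mean FPKM of both libraries (horizontal, log axis) for the 63 chaperone genes in red and all other genes with a mean of at least 1 FPKM in grey, with dotted lines at 0.5 and 1.5 in both directions. The red points stay inside the lines at 1.5, and HSPA13 is the highest of them at 1.07.

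Among the Hsp70 and Hsp110 genes, the stress-inducible Hsp70 transcripts were lower and the exchange factors were higher with shKIAA1429, while the constitutive Hsp70 differed little. HSPA1A (ENSG00000204389.9_3, chr6:31783241-31785723 of GRCh37, plus strand) was at 18.3 FPKM with shNC and 10.3 FPKM with shKIAA1429, 56.2% of the control and a log2 change of -0.77. HSPA1B (chr6:31795512-31798032, plus strand), its neighbour with nearly the same coding sequence, was at 20.8 and 13.0 FPKM, 62.6% of the control and a log2 change of -0.64. Of all 10702 genes, 209 had a lower log2 change than HSPA1A and 364 a lower one than HSPA1B. Of the windows of 150 bases in the HSPA1A transcript of GENCODE 29, 67.1% occur unchanged in that of HSPA1B, so reads could be split between them. The levels of both together were 39.1 and 23.3 FPKM, a log2 change of -0.72. HSPA1B alone came to -0.49, inside the limit of 0.5, when each library was rescaled to the same FPKM sum. It was at -0.67 when the mitochondrial genes were left out of that sum.

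HSPA8, the constitutive Hsp70 of the cytosol, was at 177 and 160 FPKM, a log2 change of -0.14 that was 0.04 on rescaling. The inducible transcripts HSPA1A and HSPA1B together amounted to 0.221 of the HSPA8 level with shNC and 0.145 with shKIAA1429. HSPA9, the Hsp70 of mitochondria, was at 81.7 and 106 FPKM, a log2 change of 0.37. The elements shown above were found before HSPA1A and HSPA1B, which were lower, and before HSPA8, which hardly differed. HSPA9 holds a motif of 2 units that begins 4 bases before its start and is not printed. Of the other genes with a printed window, DNAJA1 (0.66), HSPB8 (0.54) and DNAJB6 (0.38) were higher and HSPB1 (-0.27) was lower.

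All 3 genes of the Hsp110 branch, the main nucleotide exchange factors of Hsp70, were higher with shKIAA1429. HSPH1 was at 13.2 and 20.0 FPKM, a log2 change of 0.57. HSPA4 was at 24.0 and 33.8 FPKM, a log2 change of 0.48, and HSPA4L at 2.27 and 3.77 FPKM, a log2 change of 0.54. Their sum stood at 0.224 of the HSPA8 level with shNC and at 0.359 with shKIAA1429. These genes were grouped after their values were seen. With the trend of GC content and transcript length taken out, HSPH1 came to 0.40 and HSPA4L to 0.33, both inside 0.5.

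HSPA13 (ENSG00000155304.5_2, chr21:15743436-15755805 of GRCh37) encodes an Hsp70 of the ER fraction without the peptide-binding domain. It went from 7.88 FPKM with shNC to 17.6 FPKM with shKIAA1429, 224% of the control and a log2 change of 1.07. A higher log2 change was found for 145 of the 10702 genes. The remaining members of the family were within 0.5 when read as single entries. HSPA12A, a distant relative, was at 12.0 and 15.0 FPKM. HSPA14, which works at the ribosome, was at 2.22 and 2.79 FPKM, and HSPA2, known for its role in sperm development, at 1.04 and 1.19 FPKM. The listed gene AC069544.2 (2.31 and 5.36 FPKM) overlaps HSPA14 on its strand. In GENCODE 29 the only gene that does so is also named HSPA14, so both may be entries of the same gene. The sum of HSPA14 and AC069544.2 went from 4.54 to 8.15 FPKM, a log2 change of 0.73, past 0.5. The heat-inducible HSPA6 was not listed.

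The Hsp90 genes of the cytosol parted. HSP90AB1, the constitutive form, was at 384 FPKM with shNC and 383 FPKM with shKIAA1429. HSP90AA1, the form that responds to stress, was at 122 and 167 FPKM, a log2 change of 0.45. The ratio of HSP90AA1 to HSP90AB1 was 0.317 with shNC and 0.436 with shKIAA1429.

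Of the small heat shock proteins, which hold unfolded proteins without ATP, HSPB1 (Hsp27) was the most abundant chaperone transcript with shNC, at 446 FPKM, and stood at 370 FPKM with shKIAA1429, a log2 change of -0.27. HSPB8, which acts with BAG3 in the removal of aggregated proteins, went the other way, from 10.1 to 15.0 FPKM, with a log2 change of 0.54, which became 0.48 once centred on the median of all genes. HSPB11 was at 7.86 and 9.58 FPKM and HSPB2 at 2.33 and 2.38 FPKM. HSPB11 is also known as a subunit of the intraflagellar transport machinery.

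None of the 9 chaperonin genes passed 0.5. This does not set them apart, since 8987 of all 10702 genes were within 0.5 as well. The cytosolic chaperonin is a double ring of 8 different subunits, of which TCP1 does not match the rule by its symbol. The 7 CCT genes ranged from 36.7 to 88.8 FPKM with shNC and from 41.5 to 90.0 FPKM with shKIAA1429, so the ratio of the highest to the lowest was 2.42 and 2.17. Their log2 changes lay between -0.21 and 0.27 with a median of 0.13, and 0 of 7 passed 0.5. CCT6A, the most abundant, was at 88.8 and 90.0 FPKM. CCT4 was at 76.7 and 66.3 FPKM, the one with the lowest log2 change (-0.21), and CCT5 at 36.7 and 44.4 FPKM, the one with the highest (0.27). CCT7 was at 61.8 and 61.4 FPKM, CCT3 at 55.1 and 61.7 FPKM, CCT2 at 48.6 and 53.2 FPKM and CCT8 at 36.7 and 41.5 FPKM. The levels of the subunits, which enter the ring in equal number, thus kept nearly the same order. TCP1 was lower than all of them in both libraries, at 18.2 and 24.5 FPKM, a log2 change of 0.41.

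HSPD1 (Hsp60) and HSPE1 (Hsp10), the chamber and the lid of the mitochondrial chaperonin, lie head to head on chromosome 2 and were both slightly higher. HSPD1 was at 95.1 and 115 FPKM, a log2 change of 0.27, and HSPE1 at 39.7 and 46.4 FPKM, a log2 change of 0.22. Their ratio was 2.39 with shNC and 2.47 with shKIAA1429. HSPE1 shares its strand with the read-through gene HSPE1-MOB4 (5.67 and 4.48 FPKM), and summed they came to a log2 change of 0.16. The 4 mitochondrial J proteins chosen from the members went slightly the other way. DNAJA3, the partner of HSPA9, was at 10.6 and 9.71 FPKM, DNAJC19 of the inner membrane at 4.79 and 4.38 FPKM, DNAJC11 at 13.0 and 12.3 FPKM and DNAJC30 at 10.9 and 9.47 FPKM. Their log2 changes ran from -0.19 to -0.06, and DNAJA3, DNAJC11 and DNAJC19 turned positive on rescaling. The choice of these J proteins was made after their values were seen. Their shared direction thus describes these 4 genes and not mitochondrial J proteins as a group. HSCB, also a mitochondrial J protein but outside the rule by its symbol, was at 3.00 and 3.07 FPKM, a log2 change of 0.02.

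**Figure D3:**
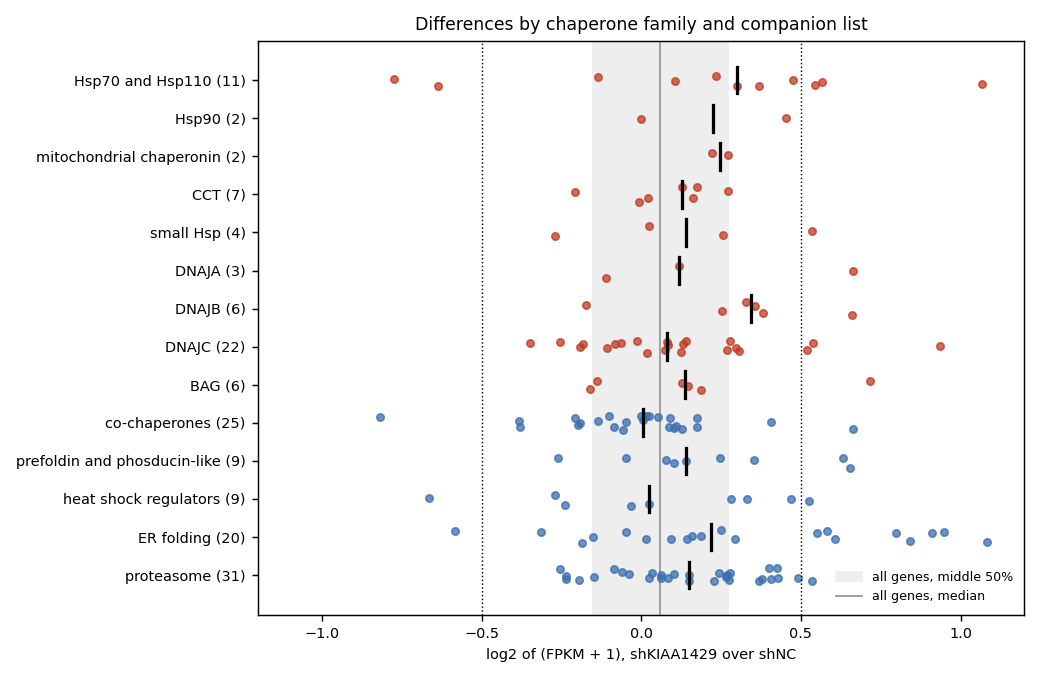
Log2 change of each gene (points) by family of the chaperone genes (red) and by companion list (blue), with the number of genes in brackets, a black bar at the median of each row, a grey band for the middle 50% of all genes and dotted lines at 0.5. The CCT genes lie within 0.5 in both directions, as do 8987 of all 10702 genes, while the Hsp70 and Hsp110 genes extend from -0.77 to 1.07.

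J proteins made up the largest group, with 31 genes in the counts. Of these, 21 (67.7%) were higher, against 57.3% of all genes, and 10 were lower. On the higher side 5 (16.1%) passed 0.5, against 9.9% of all genes. On the lower side 0 did, against 6.12%, and the median log2 change was 0.12. Of the 5 higher genes, DNAJC2 (0.48) and DNAJC10 (0.46) came inside 0.5 after centring. DNAJB14 (0.38) and DNAJC10 (0.31) did so with the trend of GC content and length taken out. The best expressed J protein gene was DNAJA1, a main partner of HSPA8 in the cytosol. DNAJA1 went from 58.9 to 93.9 FPKM, 159% of the control and a log2 change of 0.66. Only 530 of the 10702 genes had a higher log2 change. Its level was 0.334 of that of HSPA8 with shNC and 0.585 with shKIAA1429. DNAJA2 was at 18.1 and 19.7 FPKM.

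DNAJB1 (Hsp40), the heat-inducible partner of Hsp70, did not go with DNAJA1. It was at 19.3 and 17.0 FPKM, a log2 change of -0.17 that was 0.00 on rescaling, and its level relative to DNAJA1 was 0.327 with shNC and 0.181 with shKIAA1429. The other DNAJB genes in the counts were higher. DNAJB14, anchored in the ER membrane, was at 1.69 and 3.25 FPKM, with a log2 change of 0.66, which came to 0.38 with the GC content and length trend taken out. Its relative DNAJB12 was at 8.40 and 10.2 FPKM. DNAJB6, which suppresses aggregation of polyglutamine proteins, was at 9.58 and 12.8 FPKM, DNAJB4 at 7.62 and 9.82 FPKM and DNAJB2 at 2.41 and 3.37 FPKM.

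The DNAJC genes share only the J domain and serve many processes. DNAJC9, which also acts as a histone chaperone, went from 9.90 to 19.9 FPKM, 201% of the control and a log2 change of 0.94, with 213 genes above it. The span of DNAJC9 (chr10:74943120-75008620 of GRCh37) overlaps that of MRPS16 on the same strand, but only from 75008601 to 75008620. This is a short stretch of either span. MRPS16 was at 13.3 and 12.2 FPKM, and the 2 genes summed came to a log2 change of 0.45, inside 0.5. DNAJC2, which works with HSPA14 on nascent chains at the ribosome, was at 9.96 and 14.9 FPKM, a log2 change of 0.54 that became 0.48 after centring. DNAJC10, a disulfide reductase of the ER, was at 7.11 and 10.6 FPKM, a log2 change of 0.52 that was 0.46 after centring and 0.31 with the trend taken out.

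DNAJC12, a partner of the aromatic amino acid hydroxylases, had the lowest log2 change of the J proteins (-0.35), at 8.08 and 6.13 FPKM. DNAJC14, an ER membrane protein, was at 12.5 and 10.3 FPKM. AC023055.1 overlaps it on the same strand, and summed they came to a log2 change of -0.09. The splicing-associated DNAJC8 was at 22.3 and 23.5 FPKM and DNAJC17 at 1.42 and 1.13 FPKM. Of the genes of vesicle traffic, DNAJC13 of endosomes was at 9.49 and 12.0 FPKM, DNAJC5 of secretory vesicles at 8.40 and 9.30 FPKM and DNAJC6, a factor that removes clathrin coats, at 1.06 and 1.48 FPKM. DNAJC25 was at 2.41 and 3.13 FPKM, while the read-through gene DNAJC25-GNG10, which overlaps it, was at 5.61 and 3.53 FPKM. Summed, they came to a log2 change of -0.23, so the sign for DNAJC25 turned. Likewise DNAJC4, at 4.64 and 5.14 FPKM, overlaps NUDT22, and their sum had a log2 change of -0.03. The remaining genes were within 0.5, with DNAJC1 at 8.83 and 9.42 FPKM, DNAJC7 at 7.66 and 7.58 FPKM, DNAJC21 at 3.18 and 3.61 FPKM and DNAJC16 at 2.14 and 1.96 FPKM. DNAJC18, DNAJC22 and DNAJC27 were between 1.04 and 1.56 FPKM in both libraries.

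BAG proteins release clients from Hsp70, and 1 of the 6 BAG genes (16.7%) passed 0.5 on the higher side, against 9.9% of all genes. BAG5, which differs from the others by carrying several BAG domains, went from 7.97 to 13.7 FPKM, 172% of the control and a log2 change of 0.72. BAG3, a target of heat shock factor 1, was at 26.4 and 23.5 FPKM, a log2 change of -0.16. BAG6, which guards newly made membrane proteins, was at 25.7 and 23.3 FPKM, a log2 change of -0.14, and both turned slightly positive on rescaling (0.02 and 0.04). BAG2 was at 7.61 and 8.40 FPKM, BAG4 at 3.59 and 4.23 FPKM (both slightly negative with the GC content and length trend taken out) and BAG1 at 1.45 and 1.71 FPKM.

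The list tied to the heat shock response cut across these families. Of its 16 listed genes, 9 were higher (56.25%, against 57.3% of all genes) and 7 lower, with a median log2 change of 0.25. Without the constitutive HSPA8 and HSP90AB1, 9 were higher (64.3%) and 5 lower, with a median of 0.30. DNAJA1, HSPH1, HSPA4L and HSPB8 (25% of the 16, against 9.9% of all genes) were past 0.5 on the higher side. HSPA1A and HSPA1B (12.5%, against 6.12%) were past it on the lower side. Of the higher genes, HSPA4L (0.49) and HSPB8 (0.48) came inside 0.5 after centring. HSPH1 (0.40) and HSPA4L (0.33) did so with the trend of GC content and length taken out. HSPB1, HSPA8, DNAJB1 and BAG3 were lower by less than 0.5, of which all but HSPB1 turned sign on rescaling. With the mitochondrial genes left out of the rescaled sum, HSPA8 (-0.13), DNAJB1 (-0.18) and BAG3 (-0.16) stayed lower. HSF1, the factor of the heat shock response, was at 8.47 and 8.63 FPKM. HSF2 was at 3.43 and 5.13 FPKM, a log2 change of 0.47.

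Chaperone partners outside the rule were followed with 3 lists of co-chaperones, prefoldin and phosducin-like genes, and heat shock regulators. Of their 43 genes in the counts, 4 (9.30%) were higher and 2 (4.65%) lower by more than 0.5. Over all genes these shares were 9.9% and 6.12%. To any degree 25 (58.1%) were higher, against 57.3% of all genes, with a median log2 change of 0.02. The shares thus lay near those of all genes. CHORDC1, a partner of Hsp90 that is itself induced by heat, was at 3.41 and 5.98 FPKM, a log2 change of 0.66. GRPEL2, an exchange factor of mitochondrial Hsp70, was at 4.10 and 1.89 FPKM, a log2 change of -0.82, while its relative GRPEL1 was at 5.99 and 6.88 FPKM. VBP1, a prefoldin subunit that hands clients to CCT, was at 8.36 and 13.7 FPKM, and PDCL, a phosducin-like partner of CCT, at 3.15 and 5.43 FPKM, with log2 changes of 0.65 and 0.63. The small heat shock protein CRYAB was at 6.29 and 9.50 FPKM, a log2 change of 0.53, and the translation factor EEF1A1 at 992 and 625 FPKM, a log2 change of -0.67. STIP1, the adaptor between Hsp70 and Hsp90, was at 27.3 FPKM in both libraries.

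Genes of ER folding and stress and of the proteasome were read beside the chaperone genes. On a list of 20 genes of ER folding and stress, 8 (40.0%) were higher and 1 (5%) was lower by more than 0.5, with a median log2 change of 0.22. The list holds not only folding genes but also the stress response genes DDIT3 (0.95), HERPUD1 (0.84), XBP1 (0.80) and ATF4 (-0.31). CANX was the 1 lower gene past 0.5, at 62.0 and 41.1 FPKM, a log2 change of -0.58. On a list of 31 proteasome genes, 1 (3.23%) was higher and 0 were lower by more than 0.5, with a median of 0.15. Over all genes, 9.9% were higher and 6.12% lower by that much. With 1 library per group these shares were not tested against each other. HSPA5 (BiP), the Hsp70 of the ER lumen, went from 80.6 to 172 FPKM, a log2 change of 1.08, close to the 1.07 of HSPA13. DNAJB9 was at 3.29 and 7.06 FPKM, DNAJC3 at 2.80 and 4.78 FPKM and DNAJB11 at 6.61 and 8.33 FPKM. Of the 9 chaperone genes that encode ER proteins, grouped after their values were seen, 3 (33.3%) passed 0.5 on the higher side. They were HSPA13, DNAJB14 and DNAJC10, beside a share of 9.9% over all genes, and the median of the 9 was 0.25. With the trend of GC content and length taken out, DNAJB14 (0.38) and DNAJC10 (0.31) came inside 0.5.

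**Figure D4:**
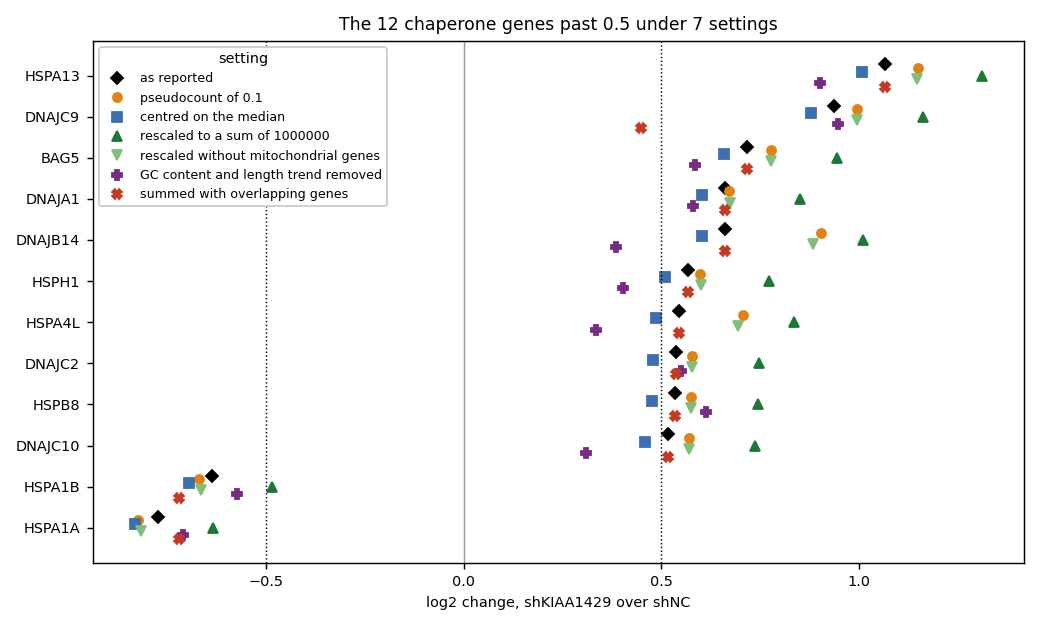
Log2 change of the 12 chaperone genes past 0.5 (rows) as reported (black diamonds) and under 6 alternatives (other markers), with dotted lines at 0.5 in both directions. HSPA13, BAG5, DNAJA1 and HSPA1A stay outside the dotted lines in all 7 settings. DNAJC9 moves inside only when summed with MRPS16, whose span overlaps its own over a short stretch.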

How the data were processed

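Poly(A) RNA of 2 ACHN libraries was sequenced from both ends in strand-specific libraries. The authors deposited FPKM per gene, 1 file per library. The submitters' processing notes name cutadapt 1.9, HISAT2 2.0.4, StringTie 1.3.4d, DESeq2 and edgeR without giving their roles. The positions fit GRCh37, and the genome build and annotation are not given in the sources used here. All listed genes are protein-coding and above 0.5 FPKM in at least 1 library, and depth is unknown. Where a symbol had several rows, that of highest mean was used (7 rows removed, 12007 genes left). Log2 changes used a pseudocount of 1, and counts and medians used genes with a mean of at least 1 FPKM (10702 genes). No test was run, since there was 1 library per group. DESeq2 and edgeR were not run here.

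Values are given for genes with a mean of at least 50 FPKM, for those past 0.5, for the ends of each family and for the pair HSPA1A and HSPA1B, and any other member may be named. Of the companion lists, genes past 0.5 are named, as are those with a mean of at least 100 FPKM, and TCP1, HSF1, HSF2, GRPEL1 and STIP1 were added for their roles after their values were seen. The members and lists were chosen with earlier results of these data known. The mitochondrial list written at the start had 6 listed genes with a median log2 change of 0.08. The search for 3 units and the heat shock list without HSPA8 and HSP90AB1 were chosen once the data had been seen. Values for GC content and length came from GENCODE 29 (99.5% of genes matched). Protein sequences were not analysed here. The steps were tested on simulated data. Alternatives were a pseudocount of 0.1, centring, rescaling to a sum of 1000000 with and without mitochondrial genes, subtraction of bin medians (10 bins) of GC content and length, sums with overlapping genes, no filter, a mean of at least 5 FPKM, and a limit of 1. Python 3.11.15, NumPy 2.4.6, pandas 2.3.3 and matplotlib 3.10.9 were used.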

Additional observations from a re-analysis of the deposited data

How the results depend on the processing

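With every other scaling and filter tried, 0 chaperone genes passed 1.5 in either direction, and a limit of 1 gave 1 higher gene. Of the 10 genes higher by more than 0.5, 6 were left in number after centring on the median of all genes (9.52%, against 7.64% of all genes) and 6 without the trend of GC content and length (9.52%, against 8.73%). Setting the FPKM sum of both libraries to 1000000 gave 20 higher genes (31.7%, against 23.9% of all genes) and 1 lower gene (1.59%, against 4.59%), and moved the median of the chaperone genes to 0.34. By construction it moved the median of all genes up by 0.18, and the chaperone genes lay 0.10 above that median, against 0.08 as reported. It turned the sign of 11 of the 51 genes within 0.5, against 1 when the mitochondrial genes were left out of the sum. A mean of at least 5 FPKM left 45 genes, with 8 higher and 2 lower. HSPA13, BAG5, DNAJA1 and HSPA1A stayed past 0.5 under all 6 alternatives that apply to single genes. No paired analysis was possible because neither group holds a replicate. Without counts or replicates, neither counting error nor the spread between cultures is known.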

Other observations

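Among genes in the counts with a RefSeq promoter window and outside the chaperone genes, 22 held the run of 3 heat shock units. Their median log2 change was 0.08, beside 0.06 for the 8379 genes without the run. Of these 22 genes, 1 was higher and 1 was lower by more than 0.5.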
